A study of Mus musculus with 7 samples.

Results

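A set of 10 genes of the oligodendrocyte lineage, *Olig1*, *Olig2*, *Nkx2-2*, *Pdgfra*, *Cspg4*, *Gpr17*, *Bcas1*, *Scrg1*, *Padi2* and *S100b*, was examined among the 38124 genes of the count table, of which 21173 are protein-coding. All 10 were found by symbol. They were chosen by their place in the lineage and partly by the rise of their counts in these same libraries, so their difference between the groups is given below as a description, with no p-value, and counts of calls among them are not read as evidence. RNA-Seq was performed on sorted cells of the basal progenitor (BP) lineage of embryonic mouse neocortex. There were 3 control libraries (replicates 1, 2 and 4) and 4 Sox9-labelled libraries (replicates 1 to 4). The lineage takes in BP-genic progenitors, BPs and their progeny. All embryos carried *Tis21*-CreERT2 and received tamoxifen, so that Cre was active in BP-genic progenitors, in which the *Tis21* locus is expressed. Their neocortex was electroporated in utero with a control construct or with the conditional Sox9 expression construct, both driven by the ubiquitous CAG promoter, from which Cre removes a floxed GFP cassette so that nuclear RFP is made. At E15.5, 48 hr after electroporation, cortices of several embryos from several mothers were pooled and the cells with the strongest RFP fluorescence (High RFP) were sorted.

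Oligodendrocyte precursor cells arise in the ventral forebrain first and in the dorsal telencephalon later, around the time when neurogenesis ends. The basic helix-loop-helix factors Olig1 and Olig2 specify them, the PDGF-A receptor Pdgfra and the NG2 proteoglycan Cspg4 mark them, and Nkx2-2 and Gpr17 accompany their step towards myelinating oligodendrocytes. Sox9 is a transcription factor of neural stem cells with a known role in the onset of gliogenesis.

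*Sox9* mRNA was the first check of the labels. Its counts were 362, 1026 and 668 in control replicates 1, 2 and 4 and 370, 435, 277 and 177 in Sox9-labelled replicates 1 to 4, which is 63.9 ± 27.5 CPM (counts per 1000000 of the scaled library size; SD, n = 3) against 40.0 ± 8.33 CPM (SD, n = 4). *Sox9* was therefore not higher in the Sox9-labelled libraries (log2 difference −0.68, SE 0.25, adjusted p = 0.0493, edgeR quasi-likelihood test, not past the threshold of 0.01), and the group names below refer to the labels only. The libraries held 4429704 to 12907778 counts. Of 14267 protein-coding genes tested, calls at an adjusted p-value under 0.01 numbered 1421 for higher levels in the Sox9-labelled libraries (9.96%) and 553 for lower ones (3.88%). With DESeq2 size factors as the scaling in edgeR the calls were 1384 higher and 931 lower. With DESeq2, which also differs in its test and filter, they were 1509 and 1245, and with cyclic loess and limma-trend, which also differs in its test, 316 and 252.

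The regions before the start of *Olig2*, *Pdgfra* and *Padi2* are shown because they are the promoters of the lineage determinant, of the defining receptor and of the gene with the largest fitted difference of the set. Each lies before both the RefSeq and the GENCODE start of the gene and is taken from RefSeq's promoter window, on GRCm38.p6 and on the plus strand, at chr16:91225300-91225456 for *Olig2*, chr5:75152001-75152250 for *Pdgfra* and chr4:140906110-140906343 for *Padi2*. Capitals mark an E-box, CANNTG, the hexamer bound by basic helix-loop-helix factors.
Olig2: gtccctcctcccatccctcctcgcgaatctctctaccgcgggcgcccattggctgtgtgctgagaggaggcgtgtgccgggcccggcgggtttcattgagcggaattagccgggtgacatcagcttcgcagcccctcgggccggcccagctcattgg
Pdgfra: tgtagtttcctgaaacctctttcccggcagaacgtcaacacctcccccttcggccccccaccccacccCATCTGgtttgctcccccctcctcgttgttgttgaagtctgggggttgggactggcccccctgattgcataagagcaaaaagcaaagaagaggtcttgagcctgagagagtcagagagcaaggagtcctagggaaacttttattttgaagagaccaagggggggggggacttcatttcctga
Padi2: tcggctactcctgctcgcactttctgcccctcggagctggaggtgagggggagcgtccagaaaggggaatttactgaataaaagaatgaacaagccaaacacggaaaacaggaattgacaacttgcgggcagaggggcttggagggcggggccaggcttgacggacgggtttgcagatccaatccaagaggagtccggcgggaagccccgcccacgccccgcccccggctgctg

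Promoter windows (250 bases before to 50 after the start) were found for 6 of the 10 genes, *Olig2*, *Nkx2-2*, *Pdgfra*, *Cspg4*, *Padi2* and *S100b*. They were searched on both strands for 4 motifs, each counted on its own whether or not it overlapped another, CANNTG, the Sox-type motifs ACAAAG and AACAAT, and the TATA-type motif TATAAA. Of all 32851 mouse promoter windows of this length, 72.3% hold CANNTG, 18.7% ACAAAG, 10.7% AACAAT and 13.6% TATAAA. The *Nkx2-2* window held 3 matches of CANNTG, the *Pdgfra* window 2 (1 of them printed), and the *S100b* window 1. The *Olig2* window held 1 AACAAT and 1 TATAAA, both downstream of the printed part, and the letters of all 4 motifs were absent from the *Padi2* and *Cspg4* windows. GC content was 65% for *Olig2*, 63.3% for *Padi2*, 60% for *Cspg4*, 59.7% for *Nkx2-2*, 53.7% for *S100b* and 51% for *Pdgfra*, with a median of 52.7% over all windows.

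The counts of each gene are given below in the same order, first control replicates 1, 2 and 4, then replicates 1, 2, 3 and 4 of the Sox9-labelled libraries. *Olig1*, which promotes the maturation of precursors, had 1, 3 and 0 counts in the controls and 18, 17, 14 and 11 in the Sox9-labelled libraries. The groups did not overlap, and the 4 Sox9-labelled libraries were close to each other, with a highest CPM 1.58 times the lowest. The mean rose from 0.119 ± 0.132 CPM (SD, n = 3) to 1.99 ± 0.469 CPM (SD, n = 4). No control library exceeded 3 counts, and for such genes the control level was set to 3 counts per library, which gives a lower bound on the fold, here at least 6.99-fold higher. In bulk libraries of this kind, fewer cells of a type and less RNA per cell cannot be told apart.

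*Olig2*, the determinant of the lineage and also a factor of motor neuron progenitors elsewhere, had 0, 2 and 0 counts in the controls and 24, 6, 12 and 7 in the Sox9-labelled libraries. No control library reached the lowest of the 4. Its level was 0.0579 ± 0.10 CPM (SD, n = 3) in the controls and 1.67 ± 1.16 CPM (SD, n = 4) in the Sox9-labelled libraries, at least 5.87-fold higher. Replicate 1 alone held 24 of the 49 counts in the Sox9-labelled libraries. Without it the bound on the log2 scale was 1.99 in place of 2.55.

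*Nkx2-2*, a homeodomain factor of ventral progenitors and of precursors about to differentiate, had 0 counts in each control library and 1, 1, 0 and 0 counts in the Sox9-labelled libraries. Both groups lay at or under 3 counts, so no fold is given, and *Nkx2-2* was the only one of the 10 genes that did not pass the filter on low counts. *Sox10*, the factor that maintains oligodendrocyte identity and that was not among the 10, did not pass it either, with 1, 3 and 1 counts in the controls and 6, 3, 0 and 3 in the Sox9-labelled libraries. Neither gene reached the counts of *Olig1* or *Olig2* in the Sox9-labelled libraries, and a small difference in *Nkx2-2* or *Sox10* could not be seen at this depth. The 10 genes are for this reason called oligodendrocyte lineage genes here and not a precursor cell type.

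*Pdgfra* encodes the receptor through which PDGF-A keeps precursors dividing. It had 3, 1 and 2 counts in the controls and 74, 52, 28 and 34 counts in the Sox9-labelled libraries. The lowest Sox9-labelled library lay far above the highest control, and the mean rose from 0.192 ± 0.10 CPM (SD, n = 3) to 6.33 ± 3.03 CPM (SD, n = 4), at least 22.3-fold higher. This was the highest of the 4 lower bounds. Its ligand gene *Pdgfa* had 88, 130 and 48 counts in the controls and 64, 79, 91 and 29 in the Sox9-labelled libraries, where the groups overlapped (log2 difference −0.01, SE 0.30, adjusted p = 0.99, edgeR).

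*Cspg4* encodes the NG2 proteoglycan, a surface protein of precursors and also of pericytes. Its counts were 4, 7 and 3 in the controls and 44, 25, 31 and 4 in the Sox9-labelled libraries. Replicate 4, the shallowest library, had as few counts as control replicate 1, and the groups were separate only once depth was taken into account, with 0.839 CPM in replicate 4 against 0.608 CPM in the highest control. The fitted log2 difference was 2.85 (SE 0.62), from 0.432 ± 0.158 CPM (SD, n = 3) to 3.18 ± 2.19 CPM (SD, n = 4).

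*Gpr17* encodes a G protein-coupled receptor of precursors that are committed but do not yet make myelin. Its counts were 0, 2 and 2 in the controls and 36, 11, 2 and 5 in the Sox9-labelled libraries. Replicate 1 held 36 of the 54 counts, and replicate 3 had the same 2 counts as 2 of the controls, so that the groups were separate only by 0.224 CPM against 0.203 CPM. The level was 0.126 ± 0.11 CPM (SD, n = 3) in the controls and 1.81 ± 2.12 CPM (SD, n = 4) in the Sox9-labelled libraries, at least 6.38-fold higher. Its SD was larger than its mean, and the highest Sox9-labelled library was 22.1 times the lowest, the widest range of the 9 genes that passed the filter. Without replicate 1 the log2 bound was 1.44 in place of 2.67.

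*Bcas1* encodes a protein of oligodendrocytes that are beginning to myelinate. It had 4, 11 and 12 counts in the controls and 116, 110, 40 and 35 counts in the Sox9-labelled libraries. All 4 Sox9-labelled libraries were above all controls, and the mean rose from 0.853 ± 0.429 CPM (SD, n = 3) to 9.53 ± 4.90 CPM (SD, n = 4), a log2 difference of 3.47 (SE 0.50). *Scrg1*, a gene for a small secreted protein that is enriched in precursors, had 9, 23 and 12 counts in the controls and 403, 395, 94 and 167 in the Sox9-labelled libraries. It was the most abundant of the 10 genes, with 1.36 ± 0.582 CPM (SD, n = 3) in the controls and 34.6 ± 18.4 CPM (SD, n = 4) in the Sox9-labelled libraries (log2 difference 4.63, SE 0.50).

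*Padi2* encodes an enzyme that turns arginine of myelin basic protein into citrulline. Its counts were 8, 1 and 7 in the controls and 332, 399, 129 and 137 in the Sox9-labelled libraries. The groups were widely separate, with 0.521 ± 0.377 CPM (SD, n = 3) against 31.6 ± 13.4 CPM (SD, n = 4), and the log2 difference of 5.93 (SE 0.51) was the largest fitted value of the 5 genes with a fitted difference. *S100b*, a calcium-binding protein of oligodendrocytes and astrocytes, had 1, 1 and 6 counts in the controls and 24, 15, 10 and 7 in the Sox9-labelled libraries. Control replicate 4 came within 1 count of replicate 4 of the Sox9-labelled libraries, and the groups were separate in CPM (0.61 CPM against a lowest value of 1.12). The level was 0.264 ± 0.30 CPM (SD, n = 3) against 1.82 ± 0.993 CPM (SD, n = 4), with a log2 difference of 2.76 (SE 0.70). Control replicate 4 held 6 of the 8 control counts, and without it the log2 difference was 4.13.

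**Figure D1:**
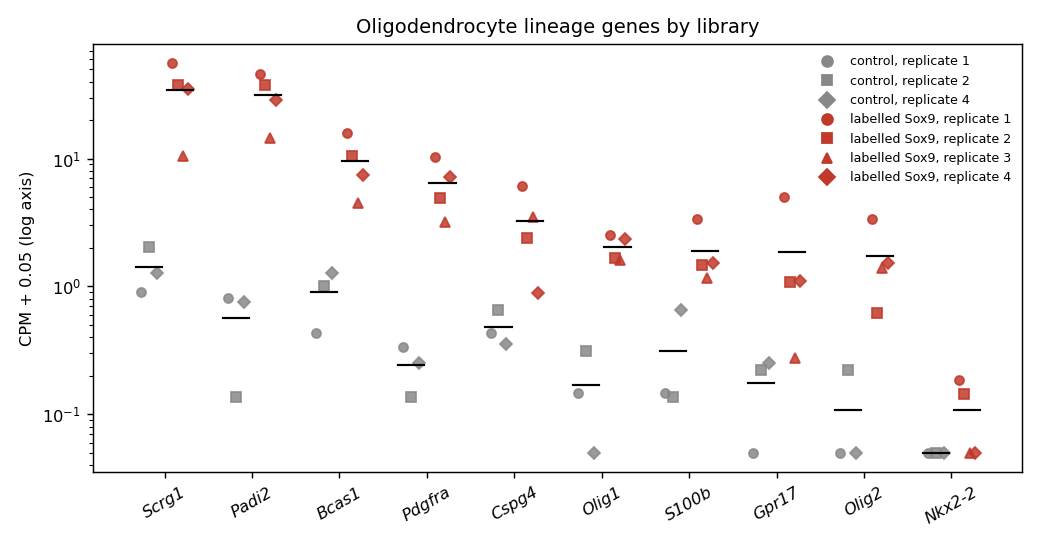
CPM of the 10 oligodendrocyte lineage genes in each library, with 0.05 added so that 0 can be drawn on the log axis (control libraries in gray, Sox9-labelled libraries in red, the marker shape gives the replicate, black bars are group means). *Scrg1*, *Padi2*, *Bcas1* and *Pdgfra* are separate by a wide margin, *Gpr17* and *Cspg4* by a narrow one, and *Nkx2-2* is at or near 0 throughout.

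Of the 10 genes, 9 passed the filter and 8 were called higher, all but *Gpr17*. In the table as a whole, 9.96% of protein-coding genes tested were called higher, and 16.9% of the 7618 with an average log2 CPM in the range of these 9 genes, 0.10 to 4.33. All 9 had every Sox9-labelled library above every control library in CPM, which 19.8% of protein-coding genes tested had. Because the genes were selected partly on this contrast, nothing is read from these counts. The median log2 difference of the 9 genes, with the 4 lower bounds taken as values, was 2.85, beside −0.06 over all protein-coding genes tested and 0.36 over those in the same range of expression. The number called was 5 of the 8 without control replicate 1, and again 5 without replicate 1 of the Sox9-labelled libraries. *Olig1*, *Pdgfra*, *Bcas1*, *Scrg1* and *Padi2* were called with any 1 of the 7 libraries left out. By contrast, *Olig2* and *Cspg4* were each not called in 5 of these 7 fits and *S100b* in 6, all but the fit without control replicate 4. Only 6 of the genes passed the filter without replicate 1 of the Sox9-labelled libraries, and 7 without replicate 2, 3 or 4. A gene not called in those fits may therefore not have been tested.

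**Figure D2:**
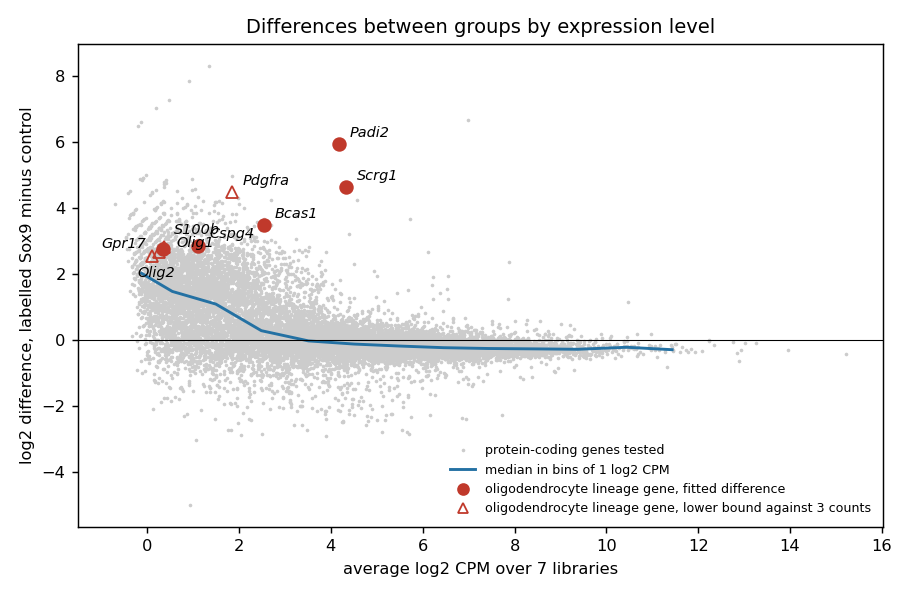
Log2 difference (Sox9-labelled libraries minus control) against average log2 CPM for 14267 protein-coding genes tested (gray), with the median in bins of 1 log2 CPM (blue) and the 9 oligodendrocyte lineage genes that passed the filter (red; open triangles are lower bounds against 3 counts per control library). The blue line lies above 0 for genes of low expression, where *Olig1*, *Olig2*, *Gpr17* and *S100b* are found, and *Padi2* and *Scrg1* lie far above it.

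Among genes of low expression the median difference was above 0 with TMM scaling, so genes without a known part in this lineage were read beside the 10. The olfactory, vomeronasal, taste and trace amine receptor genes, which cortical progenitors are not known to use, summed to 113 to 155 CPM in the controls and 342 to 481 CPM in the Sox9-labelled libraries, and the mean sums differed 3.02-fold (p = 0.0571 in a two-sided exact permutation test, the lowest value that 3 and 4 libraries can give, adjusted p = 0.08 over 14 lists). Of the 99 such genes tested, 13 were called higher, with a median log2 difference of 1.70, beside the 9.96% called higher over all protein-coding genes and the 16.9% in the range of the lineage genes. Of these 99, 56 had every Sox9-labelled library above every control, beside 19.8% of all protein-coding genes tested. An unadjusted p under 0.05 (edgeR) was reached by 78 of the 99, all of them higher. The 10 lineage genes summed to 2.87, 4.43 and 4.48 CPM in the controls and 147, 97.4, 40.2 and 85.4 CPM in the Sox9-labelled libraries, and the ratio of the mean sums was 23.6. Most of the sum in the Sox9-labelled libraries came from *Scrg1* (34.6 CPM) and *Padi2* (31.6 CPM), and 5 of the 10 genes had no more than 3 counts in any control library, so the ratio does not stand for each gene. The part that a shift of all low genes has in the values of *Olig1*, *Olig2*, *Gpr17*, *Cspg4* and *S100b* was not tested.

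Levels were compared between the 10 genes as CPM per kilobase of exon, since the deposited FPKM values are scaled by the whole span of a gene with its introns. On this scale *Scrg1* was first in the Sox9-labelled libraries, at 49.4 CPM per kb (15 to 79.1 over the 4 libraries). Its range did not overlap that of *Padi2*, which was next at 6.31 (2.88 to 9.1). *Bcas1* followed at 2.53 CPM per kb, *S100b* at 1.23, *Olig1* at 0.919, *Olig2* at 0.659, *Pdgfra* at 0.632, *Gpr17* at 0.349 and *Cspg4* at 0.266. *Nkx2-2* was last at 0.0202 CPM per kb, with a range that lay under that of *Cspg4*. From *Padi2* down to *Cspg4* the ranges of neighbours in this order overlapped. Compared within each library, *Padi2* was above *Bcas1*, *Bcas1* above *S100b* and *Pdgfra* above *Gpr17* in 4 of 4 Sox9-labelled libraries. *S100b* was above *Olig1*, *Olig1* above *Olig2* and *Gpr17* above *Cspg4* in 3 of 4, and *Olig2* above *Pdgfra* in 2 of 4. In the controls *Scrg1* was first as well, at 1.94 CPM per kb. *Bcas1*, at 0.226, and *S100b*, at 0.178, came next, and the ranges of these 2 genes overlapped.

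The 4 Sox9-labelled libraries differed among themselves in a similar way for most of the genes. Replicate 1 had the highest CPM for all 9 genes that passed the filter, whereas it was highest for 29.1% of all protein-coding genes tested and for 45% of the 1421 called higher. Replicate 3 had the lowest CPM for 7 of the 9, beside 26.2% of all genes tested and 12.9% of those called higher. The exceptions were *Olig2*, lowest in replicate 2, and *Cspg4*, lowest in replicate 4. Across the 4 libraries, the highest level was 5.27 times the lowest for *Scrg1*, 3.56 for *Bcas1*, 3.25 for *Pdgfra* and 3.16 for *Padi2*. Genes of 1 library share its depth and scaling, so the 9 genes are not independent in this count.

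**Figure D3:**
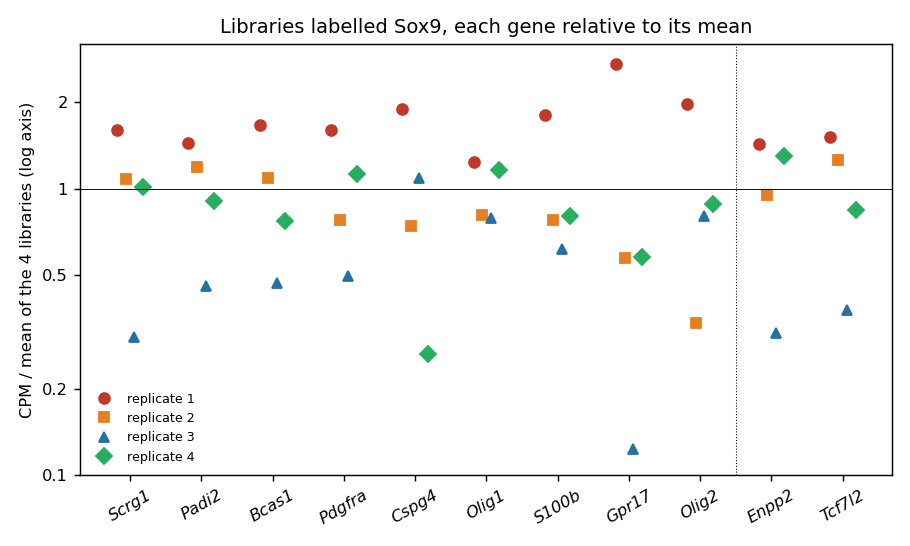
CPM in each of the 4 Sox9-labelled libraries divided by the mean of the 4, on a log axis, for the 9 oligodendrocyte lineage genes that passed the filter and, right of the dotted line, for *Enpp2* and *Tcf7l2*. Replicate 1 (red circles) is the highest library of each of the 11 genes shown, and replicate 3 (blue triangles) is the lowest for all but *Olig2* and *Cspg4*.

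Over all 7 libraries, the 5 protein-coding genes outside the set whose log2 CPM was most like the mean standardized profile of the 9 genes were *Cdh16*, *Plod1*, *Ankrd60*, *Fbxw22* and *Peg10*. Their Pearson correlation with it was 0.995 for *Cdh16*, 0.989 for *Plod1*, *Ankrd60* and *Fbxw22*, and 0.988 for *Peg10*, over 7 libraries that share the same 2 groups. *Plod1*, a collagen lysyl hydroxylase, was the most abundant of them, with 61, 91 and 75 counts in the controls and 241, 253, 142 and 90 in the Sox9-labelled libraries (log2 difference 1.69, SE 0.26, adjusted p = 0.00064, edgeR). *Cdh16* had 1, 2 and 2 counts in the controls and 12, 12, 8 and 5 in the Sox9-labelled libraries, so that the closest profile was that of a gene as low as *Olig1*.

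The regulators that specify the lineage were called in both directions. Of 36 such genes, among them the sonic hedgehog, PDGF, FGF, BMP and Notch components, 30 passed the filter, 3 were called higher and 3 lower, with a median log2 difference of −0.26. Over all protein-coding genes tested the shares were 9.96% higher and 3.88% lower, so the share called higher was close to that of all genes. *Tcf7l2*, a Wnt effector of differentiating oligodendrocytes, had 464, 1016 and 778 counts in the controls and 3991, 4827, 1221 and 1448 in the Sox9-labelled libraries, 70.6 ± 23.2 CPM (SD, n = 3) against 361 ± 181 CPM (SD, n = 4; log2 difference 2.35, SE 0.36, adjusted p = 0.000615, edgeR). *Bmp4*, a ligand made by committed precursors, rose by 3.11 on the log2 scale (SE 0.44, adjusted p = 0.000337, edgeR), from 5, 7 and 11 counts to 41, 49, 56 and 45. The growth factor gene *Fgf2* was also called higher (log2 difference 2.37, SE 0.58, adjusted p = 0.00809, edgeR).

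The 3 regulators called lower were *Gli3*, *Fgfr1* and *Hdac1*. *Gli3*, the hedgehog repressor of the dorsal telencephalon, fell by 1.63 on the log2 scale (SE 0.27, adjusted p = 0.000957, edgeR), from 30.2 ± 13.3 CPM (SD, n = 3) to 9.70 ± 1.44 CPM (SD, n = 4). The FGF receptor gene *Fgfr1* fell by 0.73 (SE 0.12, adjusted p = 0.000918, edgeR). The histone deacetylase gene *Hdac1* fell by 0.67 (SE 0.14, adjusted p = 0.00357, edgeR). *Shh* itself had 0 counts in each control library and 4, 4, 1 and 2 in the Sox9-labelled libraries, and did not pass the filter.

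Among 24 other genes enriched in precursors, 23 were in the table, 20 passed the filter and 7 were called, all of them higher, with a median log2 difference of 0.45. Of all protein-coding genes tested 9.96% were called higher, and 16.9% of those in the range of the lineage genes. The 7 were *Bmp4*, which is on both lists, *Vcan*, *Matn4*, *Susd5*, *Neu4*, *Pcdh15* and *Lims2*. *Lims2* overlaps *Gpr17*, and reads of the overlap cannot be told apart, so its call is not independent of that gene. *Vcan*, the matrix proteoglycan versican, had 478, 367 and 196 counts in the controls and 1217, 999, 601 and 408 in the Sox9-labelled libraries (log2 difference 1.67, SE 0.30, adjusted p = 0.0014, edgeR). *Matn4*, a matrilin of the extracellular matrix, rose by 2.47 (SE 0.44, adjusted p = 0.00153, edgeR), from 0.90 ± 0.454 CPM (SD, n = 3) to 4.95 ± 1.40 CPM (SD, n = 4). The summed level of the list did not separate the groups, at 737 to 836 CPM in the controls and 722 to 826 CPM in the Sox9-labelled libraries (exact permutation test, two-sided, p = 0.971, adjusted p = 0.971). The sum came mostly from *Rlbp1*, *Ptprz1* and *Sox4*, none of them called. Their means were 267, 212 and 124 CPM in the controls and 236, 165 and 112 CPM in the Sox9-labelled libraries. Of the 20 genes tested, 9 had every Sox9-labelled library above every control, beside 19.8% of all protein-coding genes tested.

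Of 27 genes of myelinating oligodendrocytes, 18 passed the filter and 6 were called, all of them higher, with a median log2 difference of 1.37. Of all protein-coding genes tested 9.96% were called higher, and the median of the chemoreceptor genes, at 1.70, lay above that of this list. *Enpp2* (autotaxin) had 78, 77 and 68 counts in the controls and 918, 889, 248 and 549 in the Sox9-labelled libraries, a log2 difference of 3.64 (SE 0.40, adjusted p = 6.31e-05, edgeR). *Itpr2*, a calcium channel of differentiating oligodendrocytes, rose from 15, 14 and 12 counts to 79, 111, 58 and 40 (log2 difference 2.80, SE 0.34, adjusted p = 0.000135, edgeR). *Gjb1*, the gap junction protein connexin 32, had 0 counts in every control library and 49, 25, 19 and 6 in the Sox9-labelled libraries, at least 11.0-fold higher (adjusted p = 0.000711, edgeR), and without replicate 1 the bound was 6.74-fold. The other genes called were *Cnp*, *Mobp* and *Enpp6*.

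The myelin genes *Mbp* and *Mog* were not called. *Mbp*, myelin basic protein, had 95, 65 and 52 counts in the controls and 21, 49, 49 and 27 in the Sox9-labelled libraries (log2 difference −0.52, SE 0.32, adjusted p = 0.231, edgeR). *Mog*, a late myelin glycoprotein, had 6.47 ± 1.48 CPM (SD, n = 3) against 6.38 ± 1.95 CPM (SD, n = 4; adjusted p = 0.996, edgeR). The summed level of the list was 80.1 to 119 CPM in the controls and 158 to 277 CPM in the Sox9-labelled libraries (exact permutation test, two-sided, p = 0.0571, adjusted p = 0.08). *Enpp2* made the largest part of this difference, with a mean of 7.02 CPM in the controls and 88.2 CPM in the Sox9-labelled libraries.

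**Figure D4:**
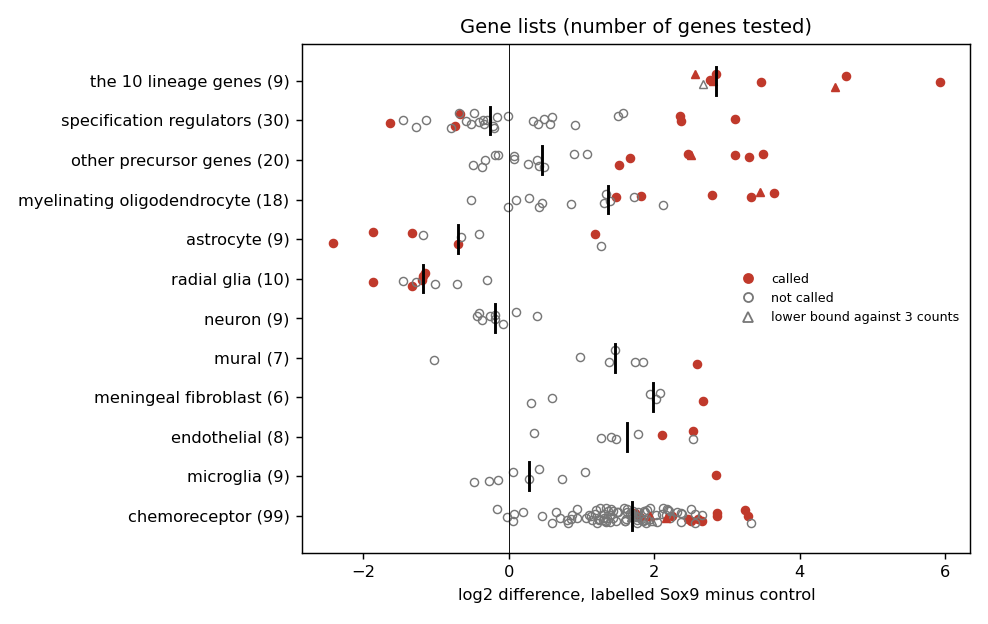
Log2 difference (Sox9-labelled libraries minus control) of each gene tested in 12 lists, with the number of genes tested in brackets (filled symbols were called at an adjusted p-value under 0.01, open symbols were not, triangles are lower bounds against 3 counts, black bars are medians). The median is 2.85 for the lineage genes, chosen partly on these values, 1.37 for the myelinating list, 0.45 for other precursor genes, −0.26 for specification regulators, and −1.18 for radial glia.

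Markers of other cell types that a sort of this tissue could hold were read beside the lineage genes. The shares called over all protein-coding genes tested were 9.96% higher and 3.88% lower. Of 10 radial glia genes, 5 were called lower, with a median log2 difference of −1.18 over the list, among them *Slc1a3*, which is also on the astrocyte list (log2 difference −1.33, SE 0.17, adjusted p = 0.000213, edgeR), *Pdpn* (−1.86, SE 0.25, adjusted p = 0.000277) and *Vim* (−1.17, SE 0.16, adjusted p = 0.000334). Of 9 astrocyte genes tested, 4 were called lower and 1 higher. The log2 difference was −2.42 for *Aldoc*, an aldolase of astrocytes and radial glia (SE 0.26, adjusted p = 5.6e-05, edgeR), −1.86 for *Aldh1l1* (SE 0.28, adjusted p = 0.000549) and 1.19 for the glutamate transporter gene *Slc1a2* (SE 0.26, adjusted p = 0.00419). The late astrocyte genes *Gfap* and *Aqp4* did not pass the filter. Of 7 intermediate progenitor genes, *Eomes* fell by 2.25 (SE 0.23, adjusted p = 4.87e-05, edgeR) and *Btg2* fell by 0.81 (SE 0.14, adjusted p = 0.00153). Of 9 neuron genes, 0 were called with edgeR, 4 had an unadjusted p under 0.05, all lower, and 1 was called lower with DESeq2. In the controls the neuron list summed to 13919 to 17367 CPM and the intermediate progenitor list to 395 to 484 CPM.

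*Pdgfra* and *Cspg4* are also known in vessel walls and meninges. The mural list summed to 19.6 to 31.7 CPM in the Sox9-labelled libraries, on average 2.28 times the controls, with 1 of 7 genes called higher, *Anpep* (log2 difference 2.59, SE 0.50, adjusted p = 0.00222, edgeR). The median log2 difference of the 7 was 1.46, and 5 had separate groups, among them *Rgs5* (0.97), *Kcnj8* (1.73), *Abcc9* (1.46) and *Notch3* (1.38), which were not called. The pericyte receptor gene *Pdgfrb* differed from them and had 5, 30 and 24 counts in the controls and 8, 3, 18 and 0 in the Sox9-labelled libraries (log2 difference −1.03, SE 0.74, adjusted p = 0.304, edgeR). The meningeal fibroblast list summed to 3.39 to 5.64 CPM against 10.2 to 19.3 CPM, with *Col1a1* called higher of 6 tested (log2 difference 2.66, SE 0.45, adjusted p = 0.00109, edgeR). The median of the 6 was 1.98, and 4 had separate groups, among them *Col1a2* (2.08), *Col3a1* (1.94) and *Aldh1a2* (2.02), not called. The endothelial list summed to 6.12 to 15.6 CPM against 20.1 to 53.9 CPM, with 2 of 8 called higher, *Flt1* (2.53, SE 0.45, adjusted p = 0.00145) and *Kdr* (2.11, SE 0.40, adjusted p = 0.0022). The median of the 8 was 1.62, with *Pecam1* at 1.78 and *Tie1* at 2.54, not called. Beside these lists, 19.8% of all protein-coding genes tested had every Sox9-labelled library above every control. Called higher were 9.96% of them, and 16.9% of those in the range of the lineage genes. The median of the chemoreceptor genes was 1.70. The marker *Cldn5*, which did not pass the filter, had 1, 7 and 1 counts in the controls and 0, 0, 15 and 0 in the Sox9-labelled libraries. For the myelinating, astrocyte, radial glia, intermediate progenitor, mural, meningeal and endothelial sums, and for the ventral and Schwann sums described next, the exact permutation p was 0.0571 (two-sided, adjusted p = 0.08), and the part of such cells in the levels of *Pdgfra* and *Cspg4* was not tested.

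Microglia genes summed to 11.7 to 44.7 CPM in the controls and 19.9 to 73.3 CPM in the Sox9-labelled libraries, which overlapped (exact permutation test, two-sided, p = 0.686, adjusted p = 0.738), and 1 of 9 was called, *C1qa*, higher. The list of ventral progenitors and interneurons, the cells among which the first precursors arise, summed to 29.1 to 41.3 CPM against 16.4 to 26.4 CPM, with *Sp8* called lower of 4 tested (log2 difference −1.38, SE 0.25, adjusted p = 0.00149, edgeR). *Sp8* carried the sum, at 31.6 CPM against 12.2 CPM, while the fitted log2 differences of *Gad2* (1.02), *Dlx1* (0.97) and *Lhx6* (0.90) were above 0, none of them called, and the median of the 4 was 0.93. The ventral factor gene *Nkx2-1* had 7, 1 and 5 counts in the controls and 5, 2, 3 and 3 in the Sox9-labelled libraries. The list of Schwann and neural crest cells, which share *Sox10* with oligodendrocytes, summed to 29.3 to 60.2 CPM against 14.5 to 24.7 CPM, and its sole called gene was *Ednrb*, lower by log2 −1.42 (SE 0.27, adjusted p = 0.00197, edgeR). Summed levels of the specification regulators (7203 to 8677 CPM against 6286 to 8057 CPM, exact permutation test, p = 0.286) and of the neuron list (13919 to 17367 CPM against 12810 to 14933 CPM, p = 0.229) overlapped between the groups. The regulator sum came mostly from *Nfia*, *Nfib* and *Id2*.

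Position in the genome was a property that the choice of genes had not used. *Olig1* (chromosome 16, 91269772 to 91271933) and *Olig2* (chromosome 16, 91225457 to 91228677) lie 41095 bp apart on the plus strand of GRCm38. The other genes lie at chromosome 2, 147177546 to 147194243 for *Nkx2-2*, chromosome 5, 75152292 to 75198215 for *Pdgfra*, chromosome 9, 56865033 to 56899870 for *Cspg4*, and chromosome 18, 31942997 to 31949636 for *Gpr17*. *Bcas1* lies at chromosome 2, 170346991 to 170427845, *Scrg1* at chromosome 8, 57455923 to 57477585, *Padi2* at chromosome 4, 140906344 to 140952586, and *S100b* at chromosome 10, 76253853 to 76261159. The nearest protein-coding gene on each side that was not one of the 10 and did not overlap the gene was read for all 10, which gave 18 genes, 12 of them tested, with 2 called, both higher, and a median log2 difference of 0.33. Beside 9.96% of all protein-coding genes called higher, 16.9% of those in the expression range of the lineage genes and the median of 0.36 in that range, these values were close to those of genes at large.

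Of the 12 neighbours tested, 10 were not called. On one side of *Olig1* and *Olig2*, *4932438H23Rik* had 1, 2 and 0 counts in the controls and 7, 4, 11 and 6 in the Sox9-labelled libraries, at least 3.37-fold higher, which did not pass the threshold (adjusted p = 0.0102, edgeR). On the other side, *Ifnar2* had 54, 55 and 59 counts in the controls and a log2 difference of 0.32 (SE 0.29, adjusted p = 0.427, edgeR). *Sap30* next to *Scrg1* differed by 0.18 (SE 0.30, adjusted p = 0.685), *Sdhb* next to *Padi2* by −0.32 (SE 0.11, adjusted p = 0.0312), and *Kit*, the receptor gene next to *Pdgfra*, by −0.91 (SE 0.29, adjusted p = 0.0252), none past the threshold. The 2 neighbours called were *Cyp24a1*, 54863 bp from *Bcas1*, with a log2 difference of 3.26 (SE 0.56, adjusted p = 0.00115, edgeR), and *Myo7b*, 9598 bp from *Gpr17*. *Myo7b* had 3, 1 and 0 counts in the controls and 11, 9, 21 and 5 in the Sox9-labelled libraries, at least 5.06-fold higher (adjusted p = 0.00505, edgeR).

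Some of the 10 genes overlap other genes, and the library kit did not mark strand, so that reads of both partners cannot be told apart where they overlap. *Gpr17* lies within *Lims2* on the opposite strand, and *Lims2* had 0, 2 and 0 counts in the controls and 28, 5, 8 and 6 in the Sox9-labelled libraries (adjusted p = 0.00633, edgeR), with its highest library the same as that of *Gpr17*. The end of *Olig1* overlaps the lincRNA *Gm15966* on the minus strand, which had 0, 3 and 6 counts against 16, 22, 15 and 7 (log2 difference 2.66, adjusted p = 0.00918, edgeR). *S100b* overlaps *Dip2a*, which did not pass the threshold (log2 difference 0.12, adjusted p = 0.805, edgeR). The counts of *Gpr17* and *Olig1* are uncertain to that extent. Antisense transcripts over *Nkx2-2*, *Bcas1* and *Padi2* had at most 9 counts in any library.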

How the data were processed

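The authors sequenced 7 libraries (3 control, 4 labelled Sox9), each a replicate of its group as the sample titles give it. RNA was reverse transcribed with poly-dT priming and the cDNA amplified by PCR without molecular identifiers, so the floor of 3 counts covers counting error only, whereas SEs of fitted differences include the spread between libraries. The authors aligned reads to mm10 with STAR 2.5.2b and deposited raw counts per Ensembl gene as whole numbers. The counting program and its use of strand are not given in the sources used here. They also deposited FPKM values, used here only in an alternative and in a check of their scaling, in which the length that links counts and FPKM lay within 2% of the whole gene span for 91.7% of 6894 genes and within 2% of the exonic length for 1.86%.

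The test was edgeR's (version 4.0.16, R 4.3.3; TMM, filterByExpr, two-sided quasi-likelihood test without covariates, Benjamini-Hochberg adjustment over 16522 genes, threshold 0.01). Libraries held 4429704 to 12907778 counts, and CPM are counts over library sizes scaled by the TMM factors. For genes with no more than 3 counts in each control library, folds are lower bounds that put 3 counts in each of them. Summed levels of gene lists were set against each other with a two-sided exact permutation test of 3 against 4 libraries, whose smallest p is 0.0571. Since nothing in the labels ties a library to separate animals, p-values measure the spread between these pooled libraries. Genes, exons and neighbours came from GENCODE annotation of GRCm38 and promoter windows (250 bases before to 50 after the start) from RefSeq GRCm38.p6. The fit was tested on simulated counts with known changes. Summaries used Python 3.11.15, pandas 2.3.3, numpy 2.4.6, scipy 1.17.1 and matplotlib 3.10.9.

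The 10 genes and all lists were chosen with earlier results of these data known, the lists from general knowledge of the cell types. The genes named are the 10, *Sox9*, up to 3 called genes in each direction of each list by smallest p-value, called neighbours, and the 5 genes with the highest Pearson correlation of log2(CPM + 0.5) with the mean profile of the 9 genes tested. Others named, such as genes at 0 or overlapping partners, were chosen after their values were seen. The alternatives were DESeq2 1.42.0, DESeq2 size factors in edgeR, cyclic loess with limma-trend (limma 3.58.1), no filter, a minimum of 10 counts in every library, protein-coding genes only, a threshold of 0.05, glmTreat against 1.5-fold, a replicate block, limma-trend on log2(FPKM + 0.1), and leaving out each library. All 7 columns of each table were used. The values of 1 gene of the lists are not reported here.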

Additional observations from a re-analysis of the deposited data

Results flagged for a closer look

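Among the 4 Sox9-labelled libraries, 1 library stood apart from the others for 4 of the 56 gene or list levels examined, by the gap to its nearest neighbour as a share of the group's whole range (above Dixon's 95% critical value for 4 samples). Chance gives such a gap in about 1 of 20 groups. For *S100b* the share was 0.839, with replicate 1 high at 3.30 CPM and the other 3 at 1.12 to 1.47 CPM. For the radial glia gene *Pdpn* it was 0.837. For the summed radial glia list it was 0.955 and for the summed list of ventral progenitors and interneurons 0.904. Replicate 3 was the low library in both sums, at 320 CPM and 16.4 CPM.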

How the results depend on the processing

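Of the 10 lineage genes, 8 were called higher, and 18 other settings gave 0 to 9. *Pdgfra*, *Scrg1* and *Padi2* were called in every setting except the filter of at least 10 counts in every library, which none of the 10 passed (0 called). *Bcas1* was called in the same settings but for FPKM. The count was 4 with cyclic loess, 5 with FPKM, 4 with the replicate block by titles, 6 with the replicate block by descriptions, and 5 to 7 when 1 library was left out. The difference stayed above 0 for *Cspg4*, *Bcas1*, *Scrg1*, *Padi2* and *S100b* in every setting that gave a fitted value, and the bounds of *Olig1*, *Olig2*, *Pdgfra* and *Gpr17*, recomputed with DESeq2 size factors and with 1 library left out, did too. The log2 difference of *S100b* was lowest with cyclic loess, at 0.63, and highest without control replicate 4, at 4.13, and that of *Cspg4* ran from 0.77 with FPKM to 3.18 with 1 library left out. The call of *S100b* was also lost with cyclic loess, FPKM, glmTreat, protein-coding genes only and either replicate block. *Olig1*, *Olig2* and *Cspg4* were not called with cyclic loess or with the replicate block by titles. *Olig2* was also not called with the block by descriptions, nor *Cspg4* with FPKM and glmTreat.

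Calls over protein-coding genes (1421 higher and 553 lower) were 549 and 198 with at least 10 counts in every library, 316 and 252 with cyclic loess, 710 and 138 with glmTreat, 853 and 245 with the replicate block by descriptions, 266 and 169 with the replicate block by titles, and 2647 and 1744 at a threshold of 0.05. Lower calls were 1245 with DESeq2, 931 with DESeq2 size factors, 101 with FPKM and 1408 without a filter. Leaving out 1 library gave 677 to 1223 higher and 201 to 461 lower. The replicate numbers do not pair the libraries: same-numbered deviations correlated at −0.0356, 0.118 and −0.00485 (titles) or −0.0356, 0.118 and 0.017 (descriptions).

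Higher calls of the myelinating list (6) were 3 with cyclic loess and 3 with FPKM, and 4 to 6 with 1 library left out. Higher calls of the specification regulators (3) were 1 with the filter of 10 counts, 1 with FPKM, 6 without a filter and 5 at 0.05 (2 to 4 with 1 library left out). Lower calls of the regulators (3) were 5 with DESeq2, 5 with its size factors, 1 with cyclic loess, 1 with glmTreat, 0 with FPKM, 7 without a filter, 1 with the replicate block by titles and 7 at 0.05 (2 to 7 with 1 library left out, 7 without control replicate 1). Higher calls of the other precursor genes (7) were 2 with the filter of 10 counts, 2 with cyclic loess, 4 with FPKM, 4 and 2 with the replicate block by descriptions and by titles (4 to 6 with 1 library left out), and lower calls were 1 without a filter and 1 at 0.05. Higher calls of neighbouring genes (2) were 0 with the filter of 10 counts, 0 with cyclic loess, 1 with glmTreat, 1 with FPKM, 1 with either replicate block and 4 at 0.05 (1 to 2 with 1 library left out). Lower calls of neighbours were 1 with DESeq2, 1 without a filter, 1 with the replicate block by descriptions and 2 at 0.05 (0 to 1 with 1 library left out). With DESeq2 size factors, an alternative added after seeing the data, the ratio of summed levels of the other precursor genes turned from 1.00 to 0.945, and no other list's ratio changed direction. The cause of these changes was not tested. Depth limited *Olig1*, *Olig2*, *Pdgfra* and *Gpr17* to lower bounds and *Nkx2-2* to counts alone.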

Other observations

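A group of genes outside the set varied among the Sox9-labelled libraries in the way *Scrg1*, *Padi2*, *Bcas1* and *Pdgfra* did. Of the 1421 protein-coding genes called higher, 105 had their highest CPM in replicate 1 and their lowest in replicate 3 of these libraries, and in 20 of them (1.41%) the highest was also at least 3 times the lowest. This pattern was chosen after the values were seen, and it has no test. The 20 held 4 of the 8 lineage genes called and 16 other genes.

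The most abundant of the 16 were *Tcf7l2*, *Kctd4* and *Enpp2*. *Kctd4* had 152, 111, 48.0 and 124 CPM in replicates 1 to 4 of the Sox9-labelled libraries and 15.7 to 20.4 CPM in the controls. *Omg*, oligodendrocyte myelin glycoprotein, had 5.49, 3.12, 1.01 and 1.47 CPM, at least 9.75-fold higher than the controls (6.56-fold without replicate 1). *Tgfa*, a ligand of the EGF receptor, had 50.4, 37.6, 13.4 and 36.7 CPM, and *Cryab*, a small heat shock protein of glia, had 15.2, 9.26, 2.68 and 5.03 CPM. *Npy*, a neuropeptide, had the widest range, with its highest library 14.0 times its lowest. *Ttr*, transthyretin, a gene of choroid plexus, had 7.42, 5.01, 1.57 and 4.82 CPM (log2 difference 4.16, SE 0.68, adjusted p = 0.000867, edgeR), and *Cartpt*, which encodes a neuropeptide precursor, had 0 counts in every control library and was at least 15.1-fold higher.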
